A study of Mus musculus with 66 samples.

Results

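The enzymes of serine synthesis and of the folate-linked one-carbon cycle were examined together with asparagine synthetase in mouse small intestinal organoids. The members were Phgdh, Psat1, Psph, Shmt1, Shmt2, Mthfd1, Mthfd1l, Mthfd2 and Asns, chosen by gene symbol. All 9 genes were found in the RNA table, each as 1 of its 9481 transcripts from 8978 genes, so changes between isoforms could not be followed. The study compared 3 cultures of Lgr5 GFPDTR/+ organoids, which carry a GFP and diphtheria toxin receptor reporter at the Lgr5 locus. ENR, the conventional culture, contained EGF, Noggin and 5% R-Spondin-1 conditioned medium. CV was the culture the study used to enrich stem cells. It had the same factors plus 3 µM CHIR99021, an inhibitor of the kinase GSK3, and 1 mM valproic acid for 5 days. EN, which enriches enterocytes, was cultured without R-Spondin-1 for 2.5 days. Valproic acid also inhibits histone deacetylases, and its effect cannot be told apart from that of CHIR99021 because CV always had both. RNA-seq and ATAC-seq were analysed for 4 libraries per culture and Hnf4g ChIP-seq for 1. Of H3K4me3, H3K27ac and H3K27me3 the table of scores covered 3 libraries per culture, whereas the series lists 4 (5 of H3K27ac in CV), and the others were not analysed here.

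Cells make serine from the glycolytic intermediate 3-phosphoglycerate through Phgdh, Psat1 and Psph in turn. Serine hydroxymethyltransferases then move a carbon from serine to tetrahydrofolate and leave glycine, Shmt1 mainly in the cytosol and Shmt2 in mitochondria. The Mthfd enzymes interconvert the loaded folates, Mthfd1 in the cytosol and Mthfd2 and Mthfd1l in mitochondria, and the carbon is used to build purines and thymidylate. The pathway is known for its high activity in dividing cells, and several of its genes, with Asns, are known targets of the amino acid stress factor Atf4.

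The RNA libraries held 5630977 to 8859757 expected counts (CV 6636692 to 7354629, ENR 5685977 to 7408741, EN 5630977 to 8859757). The labelled cell types were checked by their markers: all 6 stem cell markers fell in EN relative to CV (median log2 fold change −4.33) and all 10 enterocyte markers rose (median 2.37). Between CV and ENR, 1 stem cell marker was higher in CV, 4 were lower and 1 did not pass (median −0.37). Their summed level was 489 to 550 CPM in CV and 1733 to 1882 in ENR, where Olfm4 alone averaged 1229 CPM, against 10.9 in CV. As a set these markers were thus not higher in CV than in ENR. All 11 tested transcripts of 9 proliferation genes also fell in EN relative to CV (median −4.31), with a summed level of 187 to 201 CPM in EN, 1456 to 1498 in CV and 2275 to 2354 in ENR. All 5 goblet markers (median 3.42) and all 5 enteroendocrine and tuft markers (median 6.34) rose in EN, while 3 of 4 Paneth markers fell and 1 rose (median −1.72). Of 3 tested fibroblast and immune markers 2 rose, but their summed level stayed at 23.5 to 29.4 CPM in EN and 3.47 to 4.58 CPM in CV. These are bulk libraries, in which fewer cells of a type and less RNA per cell cannot be told apart, and the part of cell composition in the results below was not tested. No label says whether the libraries came from separate cultures, so p-values measure the spread between these libraries, which may be technical.

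All 9 enzymes had less mRNA in EN than in either other culture. Between EN and CV, 9 of 9 fell at an adjusted p under 0.01 (edgeR quasi-likelihood test), against 41.2% of the 9288 transcripts tested, and 8 of 9 fell at least 2-fold, against 20.1%. Between EN and ENR, again 9 of 9 fell, against 37.2%, and 8 of 9 fell at least 2-fold, against 17%. The median log2 fold change of the members was −2.58 between EN and CV, where the median of all transcripts was −0.08, and −2.39 between EN and ENR, where it was −0.01. In every member the 4 EN libraries lay below all 4 CV libraries, which 41.6% of all transcripts did, and below all 4 ENR libraries, which 37.9% did. Both comparisons share the EN libraries. Between CV and ENR the differences were smaller: 5 members were higher in CV (30.2% of all transcripts were), Shmt1 was lower (29.8%), 3 did not pass and 0 reached 2-fold (6.74% of all transcripts were higher and 6.17% lower by that much), with a median of 0.25. Summed over the members, the level per length was 737 ± 22.7 TPM in CV, 547 ± 11.7 TPM in ENR and 90.3 ± 3.83 TPM in EN (SD, n = 4 each).

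**Figure D1:**
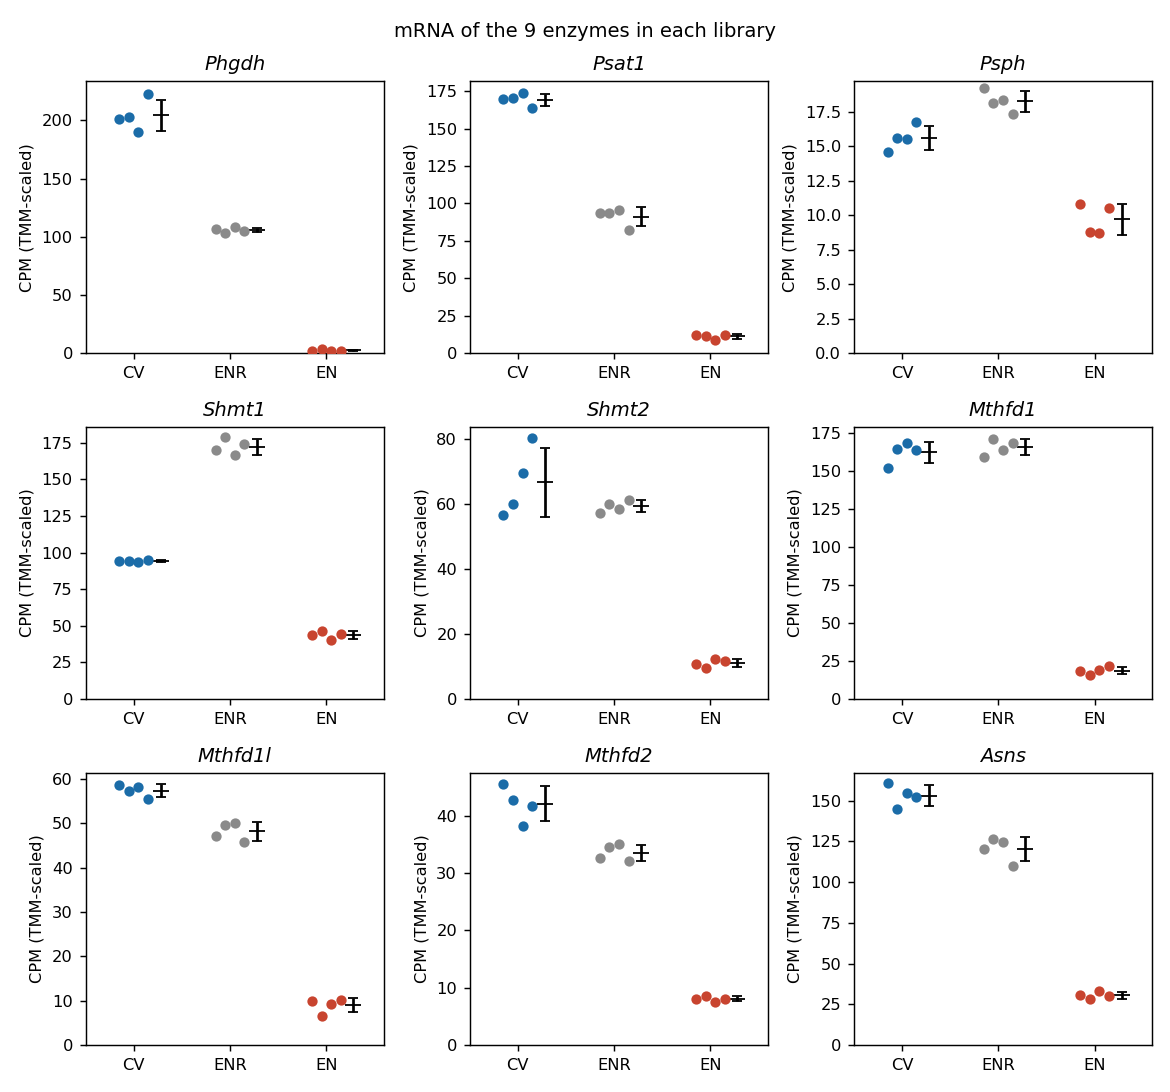
TMM-scaled CPM (vertical axis, from 0) of each of the 9 enzymes in the 4 libraries of CV, ENR and EN (points), with the mean and SD beside them. In every panel the 4 EN libraries lie below those of CV and ENR, from 2.14 to 3.43 CPM for Phgdh to 40.5 to 46.5 CPM for Shmt1.

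Phgdh, which oxidises 3-phosphoglycerate and commits it to serine synthesis, had the widest range of the members. Its promoter is shown because ATAC signal over the start site separated all 3 cultures, as described with the chromatin data. This was not particular to Phgdh: the cultures did not overlap at start site regions of Psat1, Shmt2 and Mthfd1l either. The sequence is the 250 bases before the RefSeq start site, read on the minus strand of mm9 at chr3:98143893-98144142, and capitals mark the 137 bases nearest the start, which lie inside the accessible region chr3:98143739-98144029.
Phgdh promoter: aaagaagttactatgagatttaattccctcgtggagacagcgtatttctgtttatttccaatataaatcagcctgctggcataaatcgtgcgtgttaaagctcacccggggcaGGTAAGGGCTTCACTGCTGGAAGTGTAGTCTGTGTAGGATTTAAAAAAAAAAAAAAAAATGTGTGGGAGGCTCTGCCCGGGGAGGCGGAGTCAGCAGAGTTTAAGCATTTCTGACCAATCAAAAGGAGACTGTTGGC
Phgdh mRNA was at 201, 203, 190 and 223 CPM in CV, 107, 104, 108 and 105 CPM in ENR, against 2.41, 3.43, 2.14 and 2.16 CPM in EN. The 3 cultures formed separate and widely spaced groups, with EN almost empty of the transcript at 12 to 18 expected counts per library against 1436 to 1849 in CV. The log2 fold change was −6.36 between EN and CV (SE 0.0925, edgeR adjusted p = 2.85e-17, 82.1-fold) and −5.41 between EN and ENR (SE 0.0993, adjusted p = 6.03e-16, 42.5-fold). By its fold change between EN and CV it ranked 36 from the lowest of all 9288 transcripts. CV also exceeded ENR, by 0.95 on the log2 scale (SE 0.051, edgeR adjusted p = 3.68e-10, 1.93-fold).

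Psat1, the transaminase that follows Phgdh, was at 170, 170, 174 and 164 CPM in CV, 93.5, 93.8, 95.7 and 82.3 CPM in ENR, against 12.1, 11.8, 9.10 and 11.9 CPM in EN. The order of the cultures was that of Phgdh, without overlap, but more transcript was left in EN. Psat1 fell by 3.90 on the log2 scale between EN and CV (SE 0.0743, edgeR adjusted p = 4.49e-16, 15.0-fold) and by 3.01 between EN and ENR (SE 0.0779, adjusted p = 1.69e-14, 8.07-fold). Its level in CV exceeded that in ENR by 0.89 on the log2 scale (SE 0.0544, edgeR adjusted p = 1.5e-09).

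Psph, the phosphatase that releases serine, moved least. It was at 14.6, 15.6, 15.5 and 16.7 CPM in CV, 19.2, 18.2, 18.4 and 17.4 CPM in ENR, against 10.9, 8.78, 8.74 and 10.5 CPM in EN. The EN libraries were the lowest and the ENR libraries the highest, and no libraries of different cultures overlapped. Psph fell by 0.67 on the log2 scale between EN and CV (SE 0.0992, edgeR adjusted p = 1.39e-05, 1.59-fold) and by 0.90 between EN and ENR (SE 0.0986, adjusted p = 5.76e-07, 1.86-fold), and it was the member that did not reach 2-fold in either comparison. The difference between CV and ENR, −0.23, did not pass (SE 0.0917, edgeR adjusted p = 0.0392). On the deposited mRNA copies, where the median of all transcripts was 0.62 higher in EN than in CV, Psph stood at 0.04 (limma adjusted p = 0.877), so its direction depended on the scale.

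Shmt1, the cytosolic serine hydroxymethyltransferase, was the member with its highest level in ENR by a clear margin. It was at 94.2, 94.5, 93.7 and 94.9 CPM in CV, 170, 179, 166 and 174 CPM in ENR, against 43.8, 46.5, 40.5 and 44.2 CPM in EN. CV therefore lay between ENR and EN, with no overlap. Shmt1 fell by 1.11 on the log2 scale between EN and CV (SE 0.0457, edgeR adjusted p = 3.38e-12, 2.16-fold), by 1.98 between EN and ENR (SE 0.0443, adjusted p = 3.89e-15, 3.94-fold) and by 0.87 between CV and ENR (SE 0.0396, adjusted p = 6.1e-11, 1.83-fold). On the deposited copies its difference between EN and CV was −0.37 (limma adjusted p = 0.177) and did not pass.

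Shmt2, the mitochondrial enzyme of the same reaction, was at 56.6, 60.1, 69.7 and 80.2 CPM in CV, 57.4, 60.0, 58.6 and 61.4 CPM in ENR, against 10.7, 9.64, 12.3 and 11.8 CPM in EN. CV and ENR overlapped, with the CV libraries spread more widely than those of any other member in relation to their mean, and EN stood far below both. The log2 fold change was −2.58 between EN and CV (SE 0.115, edgeR adjusted p = 8.95e-12, 5.97-fold) and −2.41 between EN and ENR (SE 0.117, adjusted p = 2.86e-11, 5.31-fold). Between CV and ENR it was 0.17 and did not pass (SE 0.0905, edgeR adjusted p = 0.109).

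Mthfd1, the cytosolic enzyme with dehydrogenase, cyclohydrolase and synthetase activities, was at 152, 164, 169 and 164 CPM in CV, 159, 171, 164 and 169 CPM in ENR, against 18.2, 16.1, 19.1 and 21.7 CPM in EN. CV and ENR overlapped, and EN was far lower. Mthfd1 fell by 3.10 on the log2 scale between EN and CV (SE 0.0665, edgeR adjusted p = 1.6e-15, 8.56-fold), and its log2 fold change between EN and ENR was −3.13 (SE 0.0666, adjusted p = 2.28e-15, 8.74-fold). The difference between CV and ENR was −0.03 (SE 0.0501, edgeR adjusted p = 0.61).

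The mitochondrial Mthfd1l, which releases formate, was at 58.8, 57.3, 58.2 and 55.4 CPM in CV, 47.1, 49.7, 50.1 and 45.8 CPM in ENR, against 9.92, 6.64, 9.28 and 10.1 CPM in EN. The cultures did not overlap, CV being the highest and EN the lowest. It fell by 2.65 on the log2 scale between EN and CV (SE 0.0869, edgeR adjusted p = 2.13e-13, 6.26-fold), and the log2 fold change between EN and ENR was −2.39 (SE 0.0885, adjusted p = 1.08e-12, 5.25-fold). CV exceeded ENR by 0.25 on the log2 scale (SE 0.068, edgeR adjusted p = 0.00388, 1.19-fold), a call that was lost when any 1 of CV replicates 1, 2 and 3 and ENR replicates 1 and 4 was left out (adjusted p = 0.0104 to 0.0151).

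Mthfd2, the mitochondrial dehydrogenase and cyclohydrolase, was at 45.7, 42.8, 38.3 and 41.8 CPM in CV, 32.6, 34.5, 35.1 and 32.2 CPM in ENR, against 8.04, 8.56, 7.49 and 8.06 CPM in EN. Again CV was the highest and EN the lowest, without overlap. It fell by 2.39 on the log2 scale between EN and CV (SE 0.0806, edgeR adjusted p = 2.99e-13, 5.24-fold), and its log2 fold change was −2.06 between EN and ENR (SE 0.0824, adjusted p = 2.75e-12, 4.18-fold). CV exceeded ENR by 0.33 on the log2 scale (SE 0.0655, edgeR adjusted p = 0.000398, 1.26-fold).

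Asns makes asparagine from aspartate with glutamine as the nitrogen donor, and it is induced through the C/EBP-ATF response element when amino acids run short. Its promoter is shown because it was the member window that held a match to the core of that element, TGATGNAA, searched on both strands in the 250 bases before and 50 after each RefSeq start. The 235 bases, on the minus strand of mm9 at chr6:7643225-7643459, end with the match TGATGAAA in capitals, at chr6:7643225-7643232 and 23 bases before the RefSeq start. In the mm9 annotation used for the chromatin regions, Asns starts further upstream, at 7643254, so the match lies inside the annotated gene.
Asns promoter: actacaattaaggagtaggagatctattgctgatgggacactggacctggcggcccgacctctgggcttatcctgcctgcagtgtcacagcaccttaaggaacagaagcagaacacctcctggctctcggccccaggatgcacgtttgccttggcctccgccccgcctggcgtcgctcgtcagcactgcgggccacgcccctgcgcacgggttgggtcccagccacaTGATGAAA
The match was present in 1 of the 10 member windows (Psat1 has more than 1) and in 1304 of 32851 RefSeq promoters of the same length (3.97%). The E-box CACGTG, searched likewise, was present in 0 of the 10 and in 7.15% of all promoters. A match describes letters and not a bound site. Asns mRNA was at 161, 145, 155 and 153 CPM in CV, 120, 126, 124 and 110 CPM in ENR, against 30.8, 28.05, 33.4 and 30.1 CPM in EN. The cultures did not overlap, in the order CV, ENR, EN. Asns fell by 2.32 on the log2 scale between EN and CV (SE 0.0611, edgeR adjusted p = 1.63e-14, 5.00-fold) and by 1.97 between EN and ENR (SE 0.0622, adjusted p = 1.68e-13, 3.92-fold). It was higher in CV than in ENR by 0.35 on the log2 scale (SE 0.0512, edgeR adjusted p = 2.06e-05, 1.28-fold).

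**Figure D2:**
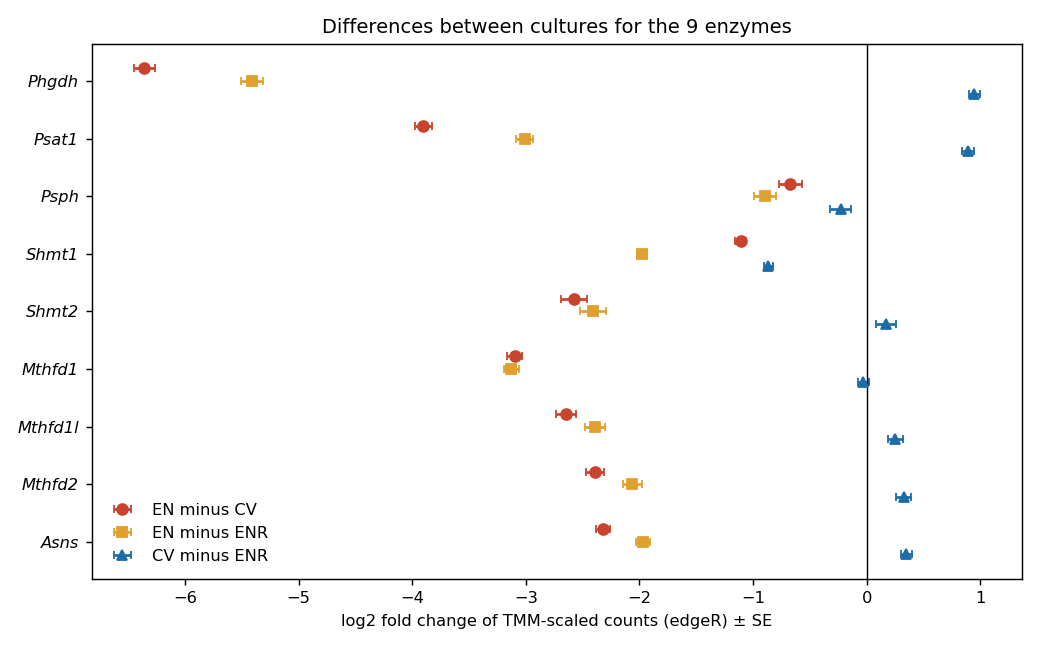
Log2 fold change of TMM-scaled counts (horizontal axis, edgeR, bars are SE) of the 9 enzymes for the comparisons EN minus CV, EN minus ENR and CV minus ENR. The EN comparisons lie below 0 for every gene, from −6.36 (Phgdh) to −0.67 (Psph) against CV, while CV minus ENR lies between −0.87 (Shmt1) and 0.95 (Phgdh).

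Compared per length, the order of the enzymes differed between the cultures. Phgdh was the most abundant of the 9 in CV at 191 ± 14.4 TPM (SD, n = 4), followed without overlap by Psat1 at 134 ± 1.96 TPM and Asns at 124 ± 5.53 TPM. It came 2nd in ENR at 88.6 ± 1.73 TPM, overlapping Asns at 87.5 ± 5.27 TPM, and last in EN at 1.89 ± 0.434 TPM, overlapping Mthfd1l at 3.30 ± 0.611 TPM. Among all transcripts, 92.5% had a lower TPM than Phgdh in CV, 86.0% in ENR and 13.4% in EN. Shmt1 was the most abundant member in ENR at 129 ± 4.00 TPM and in EN at 29.2 ± 1.64 TPM, above its neighbour in every library, whereas in CV at 78.5 ± 1.11 TPM it came 5th and overlapped Mthfd1 at 81.3 ± 3.41 TPM. Psph was last in CV at 19.6 ± 1.29 TPM and 3rd in EN at 9.75 ± 1.27 TPM. The next 3 in EN, Mthfd1 at 7.54 ± 0.955 TPM, Psat1 at 7.12 ± 0.947 TPM and Shmt2 at 6.63 ± 0.715 TPM, could not be ordered because neighbours overlapped, as did Psph and Mthfd1.

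Ratios between enzymes within a library do not depend on how libraries are scaled, and 4 of them were compared between cultures in 12 comparisons. With 4 libraries against 4 the smallest p of the exact permutation test (2-sided) is 0.0286, which Benjamini-Hochberg adjustment over the 12 made 0.0312, and 11 of 12 reached it. How many ratios of other transcripts would reach it was not measured, so the count is not a result particular to these enzymes. Of single transcripts, 76.4% were called between EN and CV, 72.7% between EN and ENR and 60% between CV and ENR. The mitochondrial to cytosolic ratio Shmt2 to Shmt1, as log2 of TPM, was −0.89, −0.81, −0.59 and −0.40 in CV, −1.73, −1.73, −1.67 and −1.66 in ENR, and −2.19, −2.43, −1.88 and −2.07 in EN. The cultures did not overlap, so Shmt1 exceeded Shmt2 everywhere, least in CV and most in EN. The mean fell by 1.47 from CV to EN (SE 0.160) and by 0.44 from ENR to EN (SE 0.117), and it was 1.02 higher in CV than in ENR (SE 0.113, exact permutation adjusted p = 0.0312 each).

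Within the Mthfd enzymes the mitochondrial members lost less than the cytosolic Mthfd1. The log2 ratio of Mthfd1l to Mthfd1 averaged −1.63 in CV, −1.92 in ENR and −1.21 in EN, and was higher in EN than in CV by 0.42 (SE 0.0926) and than in ENR by 0.71 (SE 0.0894). The ratio of Mthfd2 to Mthfd1 averaged −1.32 in CV, −1.67 in ENR and −0.59 in EN, higher in EN than in CV by 0.73 (SE 0.140) and than in ENR by 1.08 (SE 0.119). CV exceeded ENR in both ratios, by 0.28 and 0.36 (exact permutation adjusted p = 0.0312 for all 6 comparisons). The direction was thus opposite to that of Shmt2 to Shmt1, where the mitochondrial member lost more in EN.

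The log2 ratio of Psat1 to Phgdh, consecutive steps of serine synthesis, averaged −0.51 in CV, −0.45 in ENR and 1.93 in EN. Psat1 had 0.70 of the TPM of Phgdh in CV and 0.73 in ENR, but 3.81 times it in EN. The increase of 2.43 from CV to EN (SE 0.162) and of 2.38 from ENR to EN (SE 0.156) reached the smallest p (exact permutation adjusted p = 0.0312). Between CV and ENR the difference was −0.05 (SE 0.0786, exact permutation p = 0.514), so no difference was detected there.

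**Figure D3:**
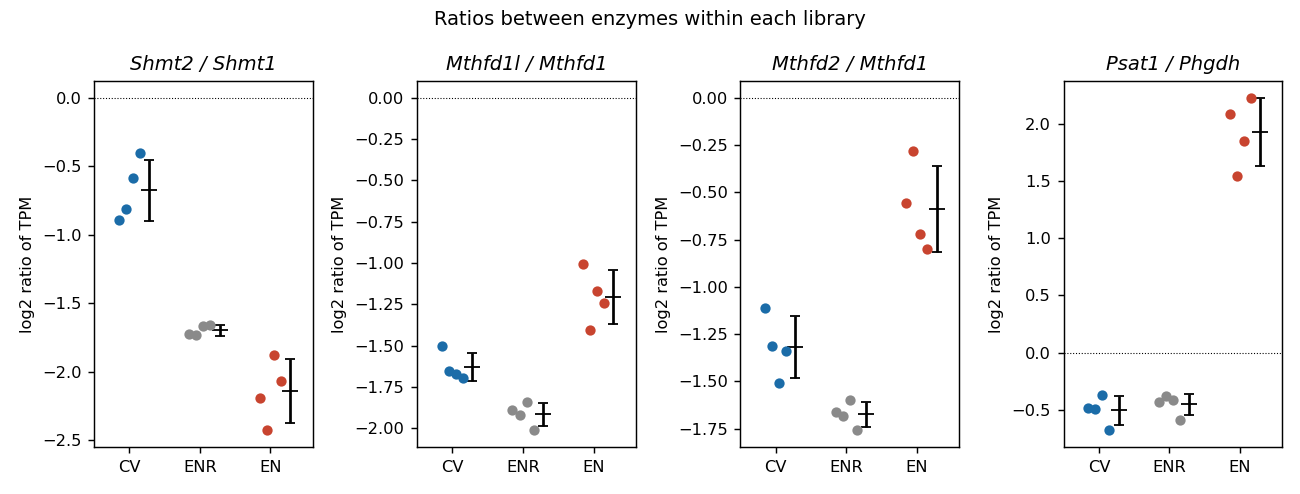
Log2 ratio of TPM (vertical axis) of Shmt2 to Shmt1, Mthfd1l to Mthfd1, Mthfd2 to Mthfd1 and Psat1 to Phgdh in each library of CV, ENR and EN (points), with the mean and SD beside them. Shmt2 to Shmt1 is lowest in EN (mean −2.14), the other ratios are highest in EN, and Psat1 to Phgdh crosses 0 only there (mean 1.93).

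Across the 12 libraries the log2 CPM of the members correlated with each other at Pearson's r between 0.781 (Psat1 and Shmt1) and 0.998 (Phgdh and Mthfd2) over 36 pairs. The 12 points are 3 cultures of 4 libraries, so r describes a shared order of the cultures and is given without a test. The non-member transcripts with the pattern most like each member, of all those tested, included the neutral amino acid transporter Slc1a4 for Phgdh (r = 0.999) and Mthfd2 (r = 0.998), with Cnn3 next for both (0.999 and 0.997). Psat1 was nearest to Prps2, an enzyme that makes the sugar phosphate of nucleotides, and Ipo11 (both r = 0.999). Mthfd1 was nearest to the cell cycle genes Cks1b (0.999) and Sgol2a (0.998), and Psph to the replication gene Cdc45 (0.990) and the mitochondrial ribosomal gene Mrps9 (0.989). Shmt1 was nearest to the ribosomal protein genes Rpl12 and Rpl15 (both 0.998), Shmt2 to Rcl1 and Nxt1 (both 0.998), Mthfd1l to D10Wsu102e (0.997) and Sgol2a (0.996), and Asns to Endod1 (0.998) and Arhgef10l (0.997).

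The genes around the members did not all move with them between EN and CV. In that comparison 35.2% of all transcripts rose and 41.2% fell, the shares to set beside the list counts below. Of 13 tested genes of folate supply and use, 8 fell, 4 rose and 1 did not pass (median −1.51). Gart and Atic, which make purines with folate-borne carbon, fell by 3.35 (SE 0.0522, edgeR adjusted p = 5.59e-17; 184 ± 5.03 CPM in CV and 18.2 ± 1.44 in EN) and by 2.86 (SE 0.0746, adjusted p = 1.48e-14). Aldh1l2, the mitochondrial formyltetrahydrofolate dehydrogenase, fell by 3.03 (SE 0.224, edgeR adjusted p = 4.38e-09), from 12.8 ± 1.35 CPM in CV to 1.58 ± 0.379 in EN, and was low in ENR as well at 1.77 ± 0.551 CPM. Ggh, the folate-trimming hydrolase, fell by 2.38 (SE 0.0924, edgeR adjusted p = 1.66e-12). Of the 4 genes of the glycine cleavage system, which breaks glycine down in mitochondria, 1 rose, 1 fell, 2 did not pass and 0 reached 2-fold (median −0.79).

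Downstream of serine, the methionine cycle and transsulfuration list had 6 tested transcripts of 5 of its 12 genes. Of these transcripts, 4 rose (35.2% of all transcripts did) and 2 fell (41.2% did), with a median of 0.47. Cth, which makes cysteine from cystathionine, rose by 2.38 on the log2 scale (SE 0.0488, edgeR adjusted p = 9.68e-16), from 70.3 ± 3.69 CPM in CV to 365 ± 19.4 in EN. Mtr, the folate-dependent methionine synthase, fell by 1.55 (SE 0.160, edgeR adjusted p = 2.45e-07), and a minor transcript of Ahcyl1, XM_017319558.1, rose by 2.01 (SE 0.447, adjusted p = 0.000674).

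Serine and glycine transport and use had 12 tested genes. Of these, 3 rose (35.2% of all transcripts did), 4 fell (41.2% did) and 5 did not pass (median 0.12). The transporters among them divided. The plasma membrane transporters Slc38a1, Slc1a4 and Slc1a5 fell by 3.73 (SE 0.0743, edgeR adjusted p = 7.3e-16), 3.54 (SE 0.0711, adjusted p = 7.89e-16) and 2.97 (SE 0.0880, adjusted p = 6.33e-14) on the log2 scale. Sfxn1, which carries serine into mitochondria, rose by 1.42 (SE 0.0484, edgeR adjusted p = 3.38e-13), from 117 ± 3.57 CPM in CV to 314 ± 7.79 in EN.

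Around Asns, 12 transcripts of asparagine, aspartate and glutamine enzymes were tested. Among them 9 fell (41.2% of all transcripts did), 2 rose (35.2% did) and 1 did not pass (median −0.94). Gpt, alanine transaminase, rose by 2.81 on the log2 scale (SE 0.0582, edgeR adjusted p = 1.07e-15; 38.1 ± 2.54 CPM in CV and 266 ± 13.4 in EN), while Got1, the cytosolic aspartate transaminase, fell by 2.03 (SE 0.0880, adjusted p = 6.16e-12). Asrgl1, which breaks asparagine down, was at 7.17 ± 1.18 CPM in CV and 0 to 0.357 CPM in EN. No fold is given for it because EN was at or under 3 counts per library. For the Atf4 pathway, 17 transcripts of 15 of the 24 listed genes were tested. Among these 10 fell (41.2% of all transcripts did), 4 rose (35.2% did) and 3 did not pass (median −0.49). Atf4 itself was not analysed here. The amino acid transporter Slc7a5 fell by 3.86 (SE 0.134, edgeR adjusted p = 4.36e-13), the lipoprotein receptor Vldlr by 2.45 (SE 0.0965, adjusted p = 1.96e-12) and the proline enzyme Pycr1 by 1.98 (SE 0.203, adjusted p = 2.26e-07). The Slc3a2 transcript NM_008577.4, whose protein is the partner of Slc7a5, rose by 1.75 (SE 0.0546, edgeR adjusted p = 1.2e-13).

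How the libraries were scaled moved all transcripts together. Between EN and CV the transcripts tested had a median log2 fold change of −0.08 on TMM-scaled counts, −0.34 on log2(TPM + 1), −0.49 on counts scaled to the spike-in transcripts and 0.62 on the authors' mRNA copies, whose totals were 1554679 to 2546655 per library in EN against 645250 to 870829 in CV. All 9 members fell on the first 3 scales. On copies 7 of 9 fell, Phgdh by 5.51, and Psph and Shmt1 did not pass. Called transcripts divided into 3267 higher and 3829 lower on TMM-scaled counts, 1473 and 4292 on spike-in scaled counts, 4383 and 1245 on copies, and 2265 and 4978 on log2(TPM + 1). Between CV and ENR, 3 members passed with spike-in scaling and 2 on copies, against 6 with TMM.

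**Figure D4:**
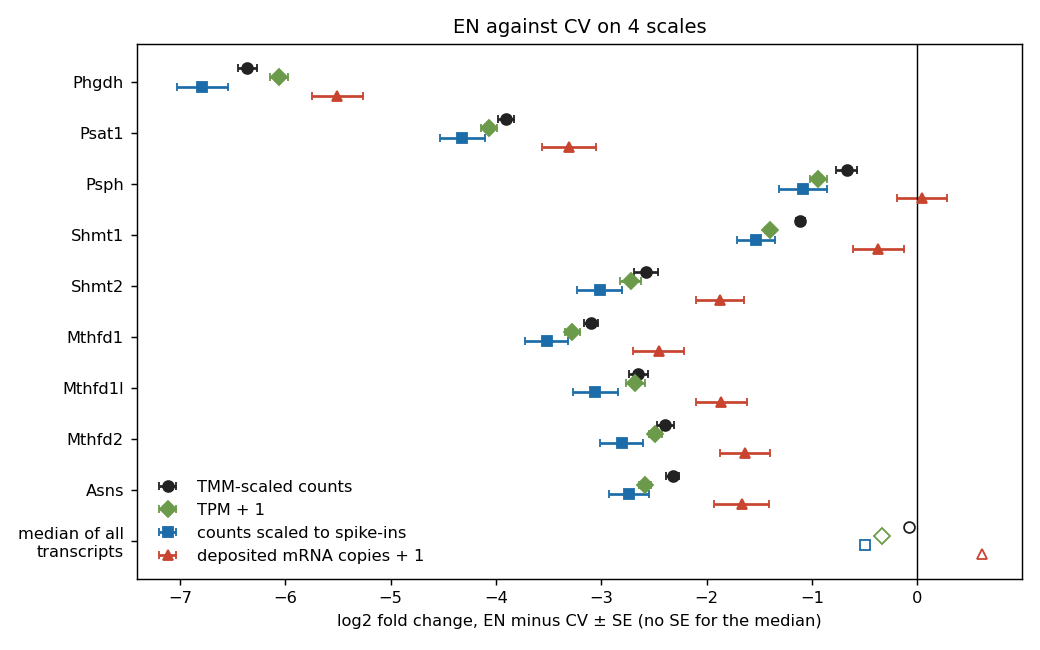
Log2 fold change between EN and CV (horizontal axis, bars are SE) of the 9 enzymes and the median of all transcripts (no SE) on TMM-scaled counts, TPM + 1, counts scaled to spike-ins and deposited mRNA copies + 1. Relative to the other scales, copies lie to the right for every gene, with Phgdh at −5.51 and Psph at 0.04.

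The chromatin at the start sites of the members was compared over the regions of a common peak set that lay within 500 bp of an annotated start, 13 regions in all. Scores were compared over the 3 cultures by the limma F test on log2(score + 1) at an adjusted p under 0.05. In ATAC-seq, 10 of 13 regions, of 8 genes, changed, 9 of them lower and 1 higher in EN than in CV. Of all regions near start sites 37.2% changed, 17.1% lower and 20% higher in EN, and of all regions tested 39.7% changed. At the stricter threshold the study used for ATAC, an adjusted p under 1e-05, 1 of the 13 passed, the Phgdh region chr3:98143739-98144029, against 3.82% of all regions.

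The region over the start of Phgdh, chr3:98143739-98144029, which holds the capitals of the sequence above, scored 30, 29, 31 and 26 in CV, 15, 10, 16 and 14 in ENR, and 1, 1, 3 and 1 in EN. The cultures did not overlap and had the order of the mRNA. The log2 difference between EN and CV was −3.65 (SE 0.258, limma adjusted p = 1.3e-08), that between EN and ENR −2.61 (adjusted p = 1.7e-06) and that between CV and ENR 1.04 (adjusted p = 0.00993). The neighbouring region chr3:98142626-98143723, inside the gene and 190 bp from the start, scored 42, 43, 33 and 23 in CV, 39, 37, 40 and 29 in ENR, and 19, 19, 20 and 20 in EN. EN was lowest there without overlap, at −0.78 relative to CV (SE 0.188, limma adjusted p = 0.00317), and CV and ENR overlapped.

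Psat1 had 2 changed regions. That at chr19:15997959-15999854 scored 102, 102, 111 and 82 in CV, 73, 60, 68 and 61 in ENR, and 42, 56, 49 and 46 in EN, and that at chr19:16021193-16021574 scored 33, 33, 37 and 21 in CV, 40, 35, 37 and 26 in ENR, and 7, 11, 17 and 11 in EN. EN was lowest in both, at −1.02 (SE 0.131, limma adjusted p = 8.25e-06) and −1.39 (SE 0.237, adjusted p = 0.000166) relative to CV. The first region also separated CV from ENR, by 0.59 (adjusted p = 0.00477). The Shmt2 region, chr10:126958259-126959593, scored 21, 23, 27 and 33 in CV, 18, 15, 20 and 20 in ENR, and 8, 8, 9 and 11 in EN, at −1.42 between EN and CV (SE 0.197, limma adjusted p = 1.98e-05). The regions of Mthfd2 (−0.96), Mthfd1l (−0.93), Mthfd1 (−0.77) and Shmt1 (−0.64) were also lower in EN than in CV, with limma adjusted p between 2.27e-05 and 0.00293 and no overlap. That of Mthfd1l also separated CV from ENR, by 0.55 (SE 0.131, limma adjusted p = 0.00751).

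Asns was the exception in direction. Its region, chr6:7641775-7643503, scored 114, 115, 104 and 100 in CV, 93, 87, 117 and 103 in ENR, and 155, 128, 139 and 128 in EN, all EN libraries being above the others. The ATAC difference between EN and CV was 0.34 (SE 0.112, limma adjusted p = 0.0234) while its mRNA fell. Psph did not pass in any of its 3 regions (limma F test adjusted p = 0.595, 0.595 and 0.07), 1 of which, chr5:130292410-130294166, also covers the start of Cct6a. Away from start sites, a region inside Mthfd1 at chr12:77412977-77413320 scored 17, 22, 16 and 19 in CV, 3, 4, 4 and 4 in ENR, and 3, 2, 0 and 3 in EN. It was open in CV and low in both other cultures, by 2.03 relative to ENR (limma adjusted p = 0.000951), although the Mthfd1 mRNA levels of CV and ENR overlapped. Of 14 tested regions in gene bodies 6 changed and of 6 in the flanks 1, beside 39.7% of all regions.

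H3K27ac, a mark of active promoters and enhancers, changed in 5 of the 13 regions, 4 of them lower and 1 higher in EN than in CV. Of all regions near start sites 18.3% changed, 3.68% lower and 14.6% higher in EN. At Phgdh chr3:98142626-98143723 the scores were 64, 38 and 37 in CV, 50, 35 and 36 in ENR, and 18, 7 and 8 in EN, with a log2 difference of −2.05 between EN and CV (SE 0.442, limma adjusted p = 0.00274). Psat1 chr19:15997959-15999854 scored 61, 84 and 87 in CV, 49, 31 and 62 in ENR, and 20, 17 and 23 in EN (−1.89, SE 0.368, limma adjusted p = 0.000917). EN was the lowest without overlap at both genes.

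At Asns, H3K27ac went with the mRNA and not with the ATAC signal. The scores were 73, 87 and 74 in CV, 111, 63 and 87 in ENR, and 18, 45 and 23 in EN, with EN lowest without overlap and a log2 difference between EN and CV of −1.51 (SE 0.345, limma adjusted p = 0.00452). Shmt1 scored 77, 111 and 76 in CV, 88, 62 and 90 in ENR, and 20, 38 and 34 in EN (−1.52, SE 0.327, limma adjusted p = 0.00265). The region shared by Psph and Cct6a was higher in EN, with 122, 102 and 133 in CV, 202, 172 and 155 in ENR, and 222, 259 and 225 in EN (0.98, SE 0.190, limma adjusted p = 0.000871). The H3K27ac calls depended on the settings, as did those over all regions. At the 0.001 the study used, 0 of 13 passed, against 1.22% of all regions. When limma was not given the mean-dependent trend 0 passed, against 3 of all 94215 regions tested. With EN replicate 2 or EN replicate 4 left out 3 passed, where 2506 and 2272 of all regions did instead of 6268.

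H3K4me3, the mark of active start sites, changed in 1 of 13 regions, lower in EN, against 8.82% of all regions near start sites (4.9% lower in EN). At Phgdh chr3:98142626-98143723 it scored 49, 57 and 49 in CV, 33, 38 and 37 in ENR, and 8, 18 and 23 in EN. The cultures did not overlap, and EN was lower than CV by 1.71 on the log2 scale (limma SE 0.328, adjusted p = 0.0262). The call depended on single libraries: in 7 of the 9 cases in which 1 library was left out, 0 regions passed, and in the other 2, without EN replicate 1 or EN replicate 4, 2 did. For H3K27me3, the Polycomb mark, 0 of 13 regions passed the limma F test (smallest adjusted p = 0.237), 1.6% of all regions near start sites did, and 2 of the 13 had an unadjusted p under 0.05. Scores, which for this mark came from peaks extended to 1000 bp, were low in all cultures, 1 to 15 in CV and 1 to 27 in EN.

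**Figure D5:**
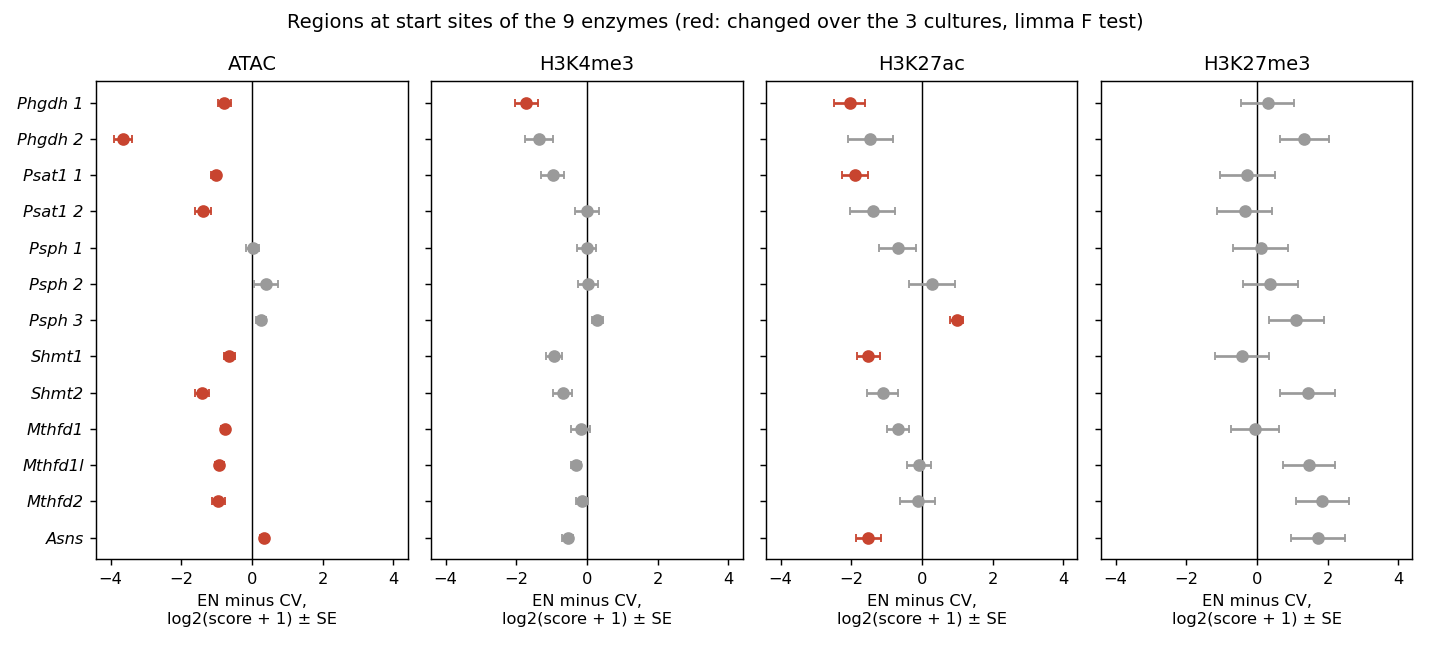
Log2 difference of score + 1 between EN and CV (horizontal axis, bars are SE) at the 13 start site regions for ATAC, H3K4me3, H3K27ac and H3K27me3, with regions of 1 gene numbered by position and red marking an adjusted p under 0.05 in the limma F test over the 3 cultures. In ATAC all red points but Asns (0.34) lie left of 0, down to −3.65 for Phgdh 2, and in H3K27ac all but Psph 3 (0.98). H3K27me3 scores are from peaks extended to 1000 bp.

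Hnf4g, a nuclear receptor of enterocytes, was profiled in 1 library per culture, with 84340 reads in regions in CV, 352600 in ENR and 1816497 in EN, so cultures were not tested against each other and the exact Poisson intervals cover counting error only. Values are in RPM (reads scaled to those in all regions of the library) and not scaled to the width of a region. In EN the start site region of Shmt1, 1631 bp wide, had 59 reads or 32.5 RPM (95% interval 24.7 to 41.9). Psat1 chr19:15997959-15999854, 1895 bp wide, had 57 reads or 31.4 RPM (23.8 to 40.7). The median of all regions in EN, of any width, was 2.20 RPM, and 91.9% of them lay below Shmt1 and 91.6% below Psat1. Start site regions of Mthfd2, Mthfd1l, Asns, Mthfd1 and Shmt2 had 20.9, 20.4, 17.6, 12.7 and 6.06 RPM in EN, above 68.4% (Shmt2) to 87.6% (Mthfd2) of regions. In CV, Shmt1 had 0 reads, which at that depth allows up to 43.7 RPM, and in ENR 2 reads or 5.67 RPM (0.687 to 20.5). This Psat1 region had 2 reads or 23.7 RPM in CV (2.87 to 85.7) and 12 or 34.0 RPM in ENR (17.6 to 59.4). The Phgdh region over the start site had 0 reads in EN (up to 2.03 RPM), and its neighbour chr3:98142626-98143723 had 26 or 14.3 RPM (9.35 to 21.0). In CV these Phgdh regions had 2 reads or 23.7 RPM (2.87 to 85.7) and 4 reads or 47.4 RPM (12.9 to 121). In ENR they had 0 reads (up to 10.5 RPM) and 4 reads or 11.3 RPM (3.09 to 29.0). The region shared by Psph and Cct6a, 1756 bp wide, had 145 reads or 79.8 RPM in EN (67.4 to 93.9), above 97.8% of regions. It had 10 reads or 119 RPM in CV (56.9 to 218) and 16 or 45.4 RPM in ENR (25.9 to 73.7).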

How the data were processed

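The members and gene lists were chosen with earlier results of these data known. Lists counted are those for folate supply and use, glycine cleavage, methionine cycle, serine and glycine transport, asparagine and related enzymes, and the Atf4 pathway, plus cell type markers. All members are named. Of each pathway list up to 4 transcripts changed at least 2-fold between EN and CV are named, and for each member the 2 transcripts of highest correlation. A gene that this rule would name is not reported here.

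RNA: the authors deposited expected counts, TPM and a score of mRNA copies per transcript, quantified with kallisto (0.43.0 in the processing notes) on an index limited to transcripts whose proteins were measured, with 92 spike-in transcripts. Spike-ins were 0.837 to 1.36% of counts and were left out of library sizes. Expected counts were rounded, and edgeR 4.0.16 was run on the 9288 transcripts detected in 4 or more of the 12 libraries (TMM, glmQLFit, glmQLFTest, 1 fit over the 3 cultures, R 4.3.3). CPM are TMM-scaled. Adjusted p-values are Benjamini-Hochberg over all transcripts, called under 0.01. Libraries of the Hnf4g knockout experiment were not used.

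Chromatin: per library, the authors deposited 1 normalized score for each of 94469 merged peaks (BWA and MACS2 in the notes, mm9), and for Hnf4g a count of reads per region. The H3K27me3 scores were from peaks extended to 1000 bp, so neighbouring regions of 1 gene can share signal. Scores were tested with limma 3.58.1 on log2(score + 1), with the variance trend on, over regions above 0 in at least 3 libraries. The depth behind the scores is unknown. RefSeq promoter windows of GRCm38.p6 were each found base for base once in mm9.

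Tested on simulated data, the RNA fit recovered 93.5% of 200 2-fold changes between EN and CV over 9276 transcripts, with 1 false call. All transcripts were drawn with 1 common dispersion (0.00475), so spread particular to a transcript was left out and recovery may be overstated. For 200 4-fold changes per dataset the limma fit recovered 98% in ATAC, 92.5% in H3K4me3, 69.5% in H3K27ac and 16.5% in H3K27me3. A count of 0 for H3K27me3 therefore carries little weight. Among unchanged regions it made 19 false calls in ATAC, 10 in H3K4me3, 16 in H3K27ac and 0 in H3K27me3. The changes were placed in regions with a mean score of at least 10. Recovery in weaker regions, which include some at member start sites, was not measured.

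Alternatives were DESeq2 1.42.0, other size factors, spike-in scaling, copies, TPM with pseudocounts of 1 and 5, no or stricter filters, a replicate block, fits of 2 cultures, each library left out, and for chromatin no trend, quantile normalization, a pseudocount of 5, the study's thresholds and a window of 1000 bp.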

Additional observations from a re-analysis of the deposited data

Results flagged for a closer look

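Of 78 groups of 4 libraries, 4 held 1 library flagged by Dixon's 95% critical value. Its gap to its nearest neighbour was too large a part of the range of the group. For continuous, normally distributed values chance flags about 1 in 20 groups. Psat1 mRNA was 82.3 CPM in 1 ENR library, with the others from 93.5 CPM, and 9.10 CPM in 1 EN library, with the nearest at 11.8 CPM. In EN the ATAC score of the Phgdh region chr3:98143739-98144029 was 3 in 1 library and 1 in the others. That of the Psph region starting at position 130285395 was 3 in 1 library and 2 in the others. These are small whole numbers with ties, which make the gap the entire range, so the rate above does not apply to them. Causes were not tested.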

How the results depend on the processing

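The counts of members called between EN and CV and between EN and ENR stayed within 1.5 times under every RNA alternative run, being lowest on copies (7 and 8 of 9), and 9 and 8 (2-fold) whichever library was left out. Between CV and ENR, 3 members passed with spike-in scaling and 2 on copies instead of 6 (5 to 6 when 1 library was left out), and at least 2-fold 2 on copies, 2 on log2(TPM + 1) and 1 on log2(TPM + 5) instead of 0 (0 whichever library was left out). Over all transcripts, spike-in scaling called 2636 and copies 1802 instead of 5569 between CV and ENR. On copies Psph turned to 0.045 (EN against CV), 0.077 (EN against ENR) and 0.032 (CV against ENR), none of which passed, and Mthfd1 between CV and ENR, which did not pass with TMM, turned to 0.14 on copies and 0.12 on either TPM scale. The ratio of Psat1 to Phgdh between CV and ENR ranged from −0.098 without CV replicate 3 to 0.0054 without CV replicate 4. Of the 12 ratio comparisons 0 passed with the replicate block, where pairs of 4 cannot go below 0.125, and 9 to 11 passed when 1 library was left out. The study's thresholds on the adjusted p (1e-05 for ATAC, 0.001 for H3K4me3 and H3K27ac) were applied to the limma F test run here. With them 1 ATAC, 0 H3K4me3 and 0 H3K27ac regions passed, against 3.82%, 0% and 1.22% of all regions. For H3K4me3 0 of all 77827 regions passed, so the count of 0 says nothing about the members. With 1 library left out, 10 to 11 ATAC regions passed at 0.05. H3K4me3 gave 4 regions with quantile normalization, 2 with a mean score of at least 10, 0 without a filter, 0 with the replicate block, and 0 to 2 with 1 library left out. H3K27ac gave 0 without a trend, 0 with the replicate block, and 3 to 6 with 1 library left out. Over all regions, 3 were called without a trend and 0 with the block, instead of 6268. The H3K27ac difference of the Mthfd1l region between EN and CV ranged from −0.32 without CV replicate 3 to 0.34 without CV replicate 5. The causes were not tested. Replicate numbers were not taken to pair the samples, because not every same-numbered pair correlated above 0.1: same-numbered RNA libraries correlated at −0.0801 to 0.111 and 4 of 12 were closest to their own number, while in ATAC the values were 0.0695 to 0.46 (8 of 12 pairs above 0.1) and 9 of 12, a hint of pairing in those data. With the block 11 ATAC regions passed instead of 10. The RNA block changed no member call and gave 7063, 6705 and 5457 calls over all transcripts. Depth limits Phgdh in EN, with 12 to 18 expected counts per library.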
